A study of Mus musculus with 6 samples.

Results

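Interferon-stimulated genes were followed as a set of 34 named mouse genes on 6 Affymetrix arrays of crypts from the mouse colon, the glands of its epithelial lining. A gene was measured where the platform's annotation ties at least 1 probe set to its symbol alone, which held for 29 of the 34, with 41 probe sets, among 12393 such genes on the array. The other 5 had none: Ifi44, Xaf1, Ddx58 (under either of its symbols, Ddx58 or Rigi) and Ifi27 had no probe set, and Isg15 shares its only one with the gene model Gm9706. All mice were male Lgr5-lacZ heterozygotes, in which 1 copy of the Lgr5 stem cell gene carries lacZ. Each of 3 groups had 2 arrays, and each array was a pool of 2 mice. Control crypts came from untreated mice of 6 to 8 weeks. DSS crypts came from mice of 6 to 8 weeks given 1% dextran sulfate sodium, a polysaccharide that injures the colonic epithelium, in drinking water, and were taken on day 2. Tumor crypts came from 12 pooled adenomas per array, taken 90 days after azoxymethane, a colon carcinogen injected at 12.5 mg per kg when mice were 6 to 8 weeks old. Azoxymethane was followed by DSS cycles of 2, 1.5 and 1.0%, each described as 5 days with 14 days of water. Tumor mice were thus older than the others, and age, carcinogen, repeated DSS and tumor cannot be told apart in that group.

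Interferons are secreted signals of infection and inflammation. Type I and type III interferons act through JAK kinases and a complex with STAT2 and IRF9 that binds a DNA element named ISRE, and drive antiviral genes such as the Ifit, Oas and Mx families. Type II interferon, interferon gamma, is made by lymphocytes and acts through a DNA element named GAS. It is known for inducing the guanylate-binding proteins, the immunity-related GTPases, antigen presentation genes and the chemokines Cxcl9 and Cxcl10. Many genes of the set answer to both kinds.

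Start regions of the members were searched for both elements. RefSeq promoter windows on GRCm38.p6, from 250 bases before to 50 bases after a start site, were found for 24 of the 34 genes. The ISRE core, searched on both strands as GAAA, any 2 bases, GAAA, was present for 14 of the 24 (58.3%), against 1079 of the 27025 genes of the promoter table (3.99%). The GAS core, searched as TTCNNNGAA, which reads the same on both strands, was present for 6 of 24 (25%) against 9.55%. The cores overlapped in 1 window, that of Bst2. A match describes letters and shows no binding. Of the 14 genes with the ISRE core, 10 were tested, and the 6 windows below are those of smallest p in the comparison of tumor with control crypts, in that order. They are written 5′ to 3′ on the gene's strand, with the ISRE core in capitals, which reads TTTC, any 2 bases, TTTC where it lies on the opposite strand.
Ifih1 (chr2:62646206-62646505, minus strand): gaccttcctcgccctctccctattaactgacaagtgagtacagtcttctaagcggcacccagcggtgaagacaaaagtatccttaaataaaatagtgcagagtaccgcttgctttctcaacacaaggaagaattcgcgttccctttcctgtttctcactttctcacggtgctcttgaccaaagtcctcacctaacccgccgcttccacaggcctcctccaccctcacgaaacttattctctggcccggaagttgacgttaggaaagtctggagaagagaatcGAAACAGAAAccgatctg
Oas1a (chr5:120907476-120907775, minus strand): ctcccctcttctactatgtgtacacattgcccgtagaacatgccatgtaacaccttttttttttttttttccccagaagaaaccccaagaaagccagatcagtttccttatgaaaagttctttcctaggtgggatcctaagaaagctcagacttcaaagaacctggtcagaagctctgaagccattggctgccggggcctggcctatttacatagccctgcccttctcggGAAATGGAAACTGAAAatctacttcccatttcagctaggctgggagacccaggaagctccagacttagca
Bst2 (chr8:71537423-71537722, minus strand): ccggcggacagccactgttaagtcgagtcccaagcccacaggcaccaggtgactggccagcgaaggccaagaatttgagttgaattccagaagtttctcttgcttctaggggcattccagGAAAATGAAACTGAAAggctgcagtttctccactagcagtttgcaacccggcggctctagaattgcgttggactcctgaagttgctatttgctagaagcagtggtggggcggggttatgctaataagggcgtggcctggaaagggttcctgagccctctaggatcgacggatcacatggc
Gbp3 (chr3:142559794-142560093, plus strand): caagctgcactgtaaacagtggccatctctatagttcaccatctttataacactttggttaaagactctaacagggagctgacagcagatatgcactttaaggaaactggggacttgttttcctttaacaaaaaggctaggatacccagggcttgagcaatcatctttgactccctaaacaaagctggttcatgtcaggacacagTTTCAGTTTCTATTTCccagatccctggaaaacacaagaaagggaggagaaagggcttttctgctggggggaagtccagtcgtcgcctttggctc
Ifit3 (chr19:34583279-34583578, plus strand): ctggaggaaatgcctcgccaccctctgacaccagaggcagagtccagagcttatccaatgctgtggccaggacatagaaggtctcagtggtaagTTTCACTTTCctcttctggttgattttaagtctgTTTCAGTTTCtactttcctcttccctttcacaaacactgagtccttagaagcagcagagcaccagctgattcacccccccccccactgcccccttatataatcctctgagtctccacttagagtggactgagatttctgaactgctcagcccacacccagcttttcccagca
Gbp2 (chr3:142620413-142620712, plus strand): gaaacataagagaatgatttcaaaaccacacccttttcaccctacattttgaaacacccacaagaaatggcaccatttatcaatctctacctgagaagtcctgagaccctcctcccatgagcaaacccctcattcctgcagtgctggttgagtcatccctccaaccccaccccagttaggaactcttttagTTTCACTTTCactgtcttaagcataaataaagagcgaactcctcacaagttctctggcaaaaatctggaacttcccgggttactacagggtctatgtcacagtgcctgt
The core began 20 bases before the start site in Oas1a, 59 in Gbp2, 45 in Gbp3, 130 in Bst2 and 156 in Ifit3, and 32 bases after it in Ifih1. Cores that overlap each other were seen in Oas1a, Bst2 and Gbp3. Of the 6 genes, only Ifih1, which fell, passed the test of tumor against control crypts described below. Ifi47 and Ifit2, which rose, had windows without the ISRE core, and no window was found for Usp18, which also rose. Shorter stretches around the core are given for Ifit1 and Rsad2, which differed most between the control arrays, and for Igtp, which differed strongly between the tumor arrays. These 3 were chosen after their values were seen.
Ifit1 (chr19:34640770-34640828, plus strand): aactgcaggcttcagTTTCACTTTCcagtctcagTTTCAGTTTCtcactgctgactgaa
Rsad2 (chr12:26456548-26456587, minus strand): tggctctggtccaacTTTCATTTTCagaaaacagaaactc
Igtp (chr11:58199507-58199546, plus strand): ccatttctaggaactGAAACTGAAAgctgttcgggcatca
Ifit1 holds the core 104 and again 85 bases before its start site, and Rsad2 120 bases before.

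Array medians lay between 94.8 and 131 in units of signal intensity, the linear MAS5 value per probe set. All 12 epithelial markers, among them Epcam and Cdh1, lay above the array median on every array, and their summed intensity ranged from 94035 to 124378. Of 8 marker lists of other cells, 6 had a higher sum on replicate 2 than on replicate 1 of each group. The summed intensity of 13 fibroblast and smooth muscle markers was 2710 and 7174 in control, 3996 and 8077 in DSS and 4628 and 13335 in tumor crypts (replicate 1, then 2). Much of the tumor sums was Vim, with 287 and 800 in control, 433 and 965 in DSS and 3477 and 6413 in tumor crypts. Of the 13 markers, 8 and 12 lay above the array median in control, 9 and 11 in DSS and 4 and 9 in tumor crypts. Spiked-in poly-A transcripts averaged 777 on the first control array, 1168 on the first DSS array and 312 to 394 on the other 4. In bulk RNA, a change in the number of cells of a type and a change in RNA per cell cannot be told apart.

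Of the 29 measured genes, 23 passed the filter on low values, which asked for intensities above the array median on at least 2 arrays. They were 14 that lay above it on all 6 arrays, 8 others, and Usp18, which lay above it on only 1 of the 4 control and DSS arrays and so passed through both tumor arrays and that one. Oas2, Stat2, Cxcl9, Cxcl10, Mx1 and Dhx58 did not pass. Intensities of different genes come from different probes and are compared here only between arrays.

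**Figure D1:**
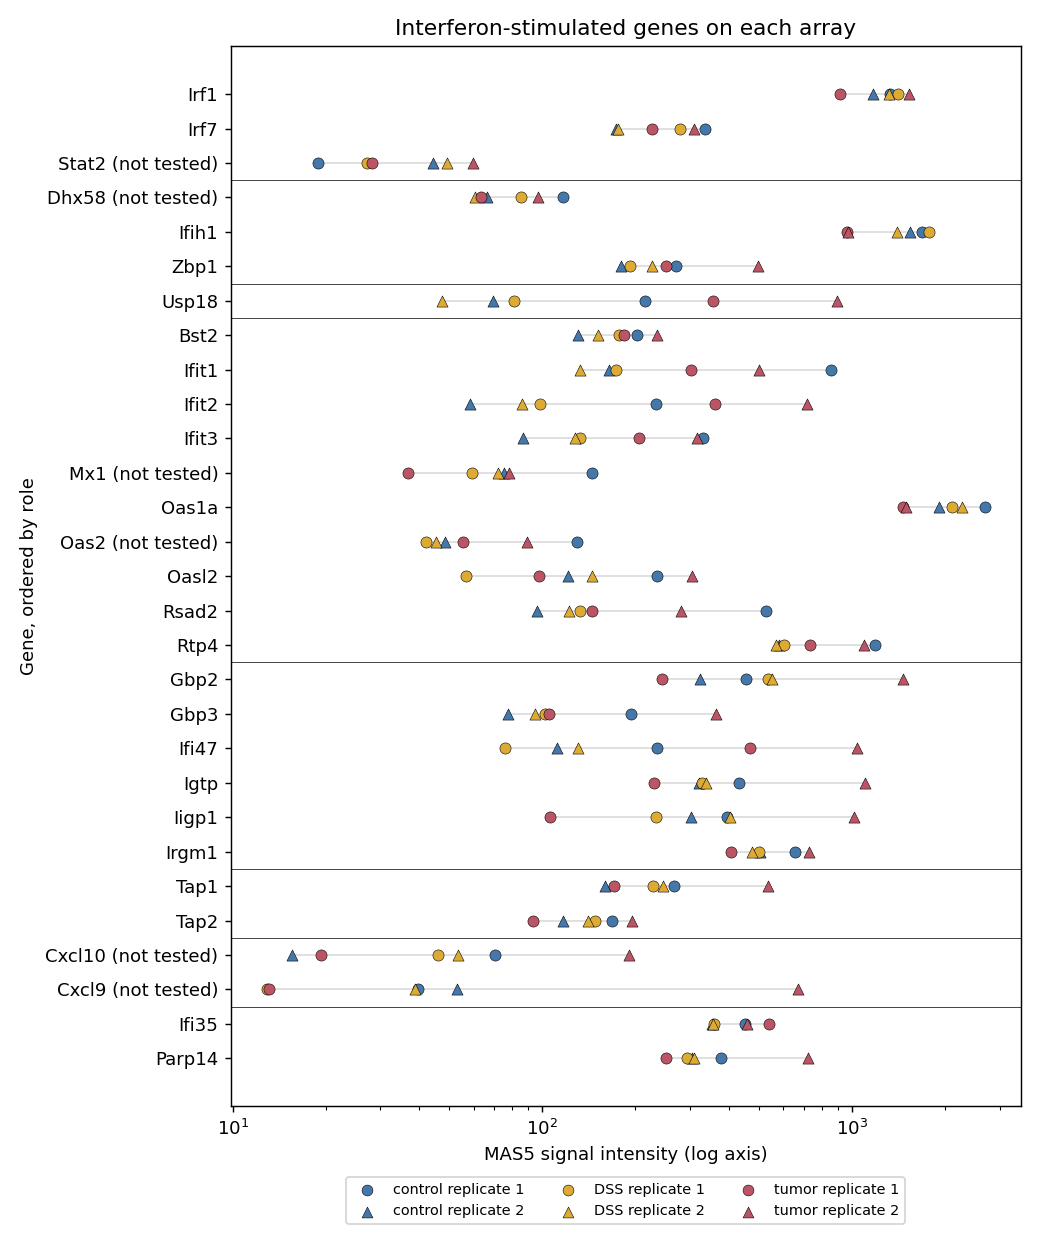
MAS5 signal intensity (log axis) of the 29 measured interferon-stimulated genes, ordered by role, on each of the 6 arrays, with colours for groups, circles for replicate 1 and triangles for replicate 2. Control replicate 1 is the highest array for Ifit1 (857) and Rsad2 (529), and tumor replicate 2 for Gbp2 (1463) and Iigp1 (1013), while the DSS arrays lie close together for most genes.

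The clearest feature of the set was a difference between the 2 arrays of a group. In control crypts, replicate 1 lay above replicate 2 for 23 of 23 tested members, where 51.3% of all 7456 genes tested did. The difference reached 1 on the log2 scale, which here always means log2 of intensity plus 17.8, for 7 of 23 members against 0.738% of all genes. These were Ifit1, Rsad2, Ifit3, Ifit2, Usp18, Gbp3 and Rtp4, and no member differed as much the other way (1.61% of all genes did). With 2 arrays per group a single array cannot be tested, and these counts are a description.

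Antiviral effectors led the difference between the control arrays. Ifit1, which binds foreign RNA, had intensities of 857 and 165 in control, 173 and 133 in DSS and 302 and 501 in tumor crypts. Control replicate 1 thus stood 5.21 times above replicate 2 and above both tumor arrays, and the 3 arrays of control replicate 2 and DSS lay together. Rsad2, which encodes viperin, an enzyme that makes a chain-terminating nucleotide, was likewise highest on control replicate 1 and next on tumor replicate 2. Its intensities were 529 and 96.4 in control, 132 and 122 in DSS and 145 and 281 in tumor crypts. Ifit3, a partner of Ifit1, had 329 and 87.0 in control, 132 and 128 in DSS and 206 and 317 in tumor crypts. Rtp4, a chaperone of membrane receptors that interferon induces, had 1192 and 583 in control, 604 and 570.5 in DSS and 735 and 1095 in tumor crypts. Its highest array was again control replicate 1, followed by tumor replicate 2, with the other control array among the DSS values. Log2 differences between control replicates 1 and 2 in the 8 tested antiviral effectors ran from 0.48 (Oas1a) to 2.26 (Ifit1 and Rsad2), with a median of 1.36. In the 6 interferon-inducible GTPases they ran from 0.36 (Irgm1) to 1.15 (Gbp3), with a median of 0.44. The transcription factor genes Irf7, which amplifies type I interferon, and Irf1, a factor downstream of interferon gamma, differed by 0.89 and 0.18.

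DSS crypts did not share this difference. The DSS arrays differed by 1 or more in log2 for 1 of 23 members, Oasl2, an OAS-like gene with 56.8 and 145 on replicates 1 and 2, against 1.84% of all genes. Control replicate 1 lay above control replicate 2 and both DSS arrays for 19 of 23 members, where 27.6% of all genes did. Most marker lists of other cells summed higher on control replicate 2, where the set was lower. Summed pan-leukocyte markers were 363 on control replicate 1 and 641 on replicate 2, and summed macrophage and dendritic cell markers 2121 and 2989. T and NK cell markers, all below the array median on both control arrays, went the other way and summed to 209 and 182. Epithelial markers summed to 111363 and 104590. Poly-A spike-ins were high on control replicate 1 (777) and higher on DSS replicate 1 (1168), where Ifit1 had 173. The parts of spike-in level and of cell content in the difference were not tested.

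In tumor crypts replicate 2 was the higher array, and GTPases had the largest differences. Replicate 2 lay above replicate 1 for 22 of 23 members, where 52.3% of all genes did. The difference reached 1 for 9 of 23 against 3.29% of all genes, namely Iigp1, Gbp2, Igtp, Gbp3, Tap1, Oasl2, Parp14, Usp18 and Ifi47, and in the opposite direction for none (0.402% of all genes).

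Interferon-inducible GTPases act on the membranes of vacuoles that hold intracellular microbes. Iigp1, an immunity-related GTPase, had 106 and 1013 in tumor crypts against 396 and 303 in control and 234 and 403 in DSS crypts. Tumor replicate 1 was its lowest array and tumor replicate 2 its highest, a ratio of 9.60. Gbp2, a guanylate-binding protein gene, had 244 and 1463 in tumor, 455 and 323 in control and 535 and 551 in DSS crypts. Igtp, a further immunity-related GTPase, had 230 and 1100 in tumor, 431 and 321 in control and 327 and 338 in DSS crypts. All 3 thus placed the tumor arrays on either side of the other 4. Gbp3 had 105 and 365 in tumor crypts, 194 and 77.6 in control and 102 and 94.5 in DSS crypts. Irgm1, a regulator of the other immunity-related GTPases, had 408 and 727 in tumor crypts and 477 to 654 on the other arrays. Log2 differences between tumor replicates 2 and 1 in the 6 GTPases ran from 0.81 (Irgm1) to 3.06 (Iigp1), with a median of 1.91. In the 8 antiviral effectors they ran from 0.03 (Oas1a) to 1.48 (Oasl2), with a median of 0.64. The peptide transporter genes Tap1 and Tap2, which feed peptides to MHC class I, differed by 1.56 and 0.93. Parp14, a mono-ADP-ribosyltransferase, had 252 and 724 in tumor crypts and 294 to 378 on the other arrays.

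Tumor replicate 1 was the lowest of the 6 arrays for 9 of 23 members (16.3% of all genes), and tumor replicate 2 the highest for 15 (31.1%). Control replicate 1 was the highest for 6 (10.3%). The chemokine genes Cxcl9 and Cxcl10, which draw activated T cells, did not pass the filter. Cxcl9 had 13.1 and 670 in tumor crypts, 39.8 and 53.2 in control and 12.9 and 38.8 in DSS crypts, so that tumor replicate 2 was its only array above the array median. Cxcl10 had 19.3 and 190 in tumor, 70.5 and 15.6 in control and 46.2 and 53.3 in DSS crypts. Both chemokines were therefore highest on tumor replicate 2.

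In tumor crypts, unlike in control crypts, most marker lists of other cells were higher on the array where the set was higher. Of 6 pan-leukocyte markers, 5 lay above the array median on tumor replicate 2 and 0 on replicate 1, with sums of 1934 and 328. Ptprc, the leukocyte surface phosphatase CD45, had 73.4 and 415 on tumor replicates 1 and 2. Summed macrophage and dendritic cell markers were 5728 and 11871, neutrophil markers 1059 and 11598, endothelial markers 518 and 1450, and B and plasma cell markers 226 and 1996. Most of the neutrophil sums came from S100a8 (698 and 6638) and S100a9 (281 and 4555). Elane and Mpo were lower on replicate 2, and 5 of the 8 neutrophil markers never passed the array median. Jchain (97.5 and 1637) made most of the B and plasma cell sum on replicate 2. Cd79a was lower there, and 4 of those 6 markers never passed the array median. T and NK cell markers summed to 223 and 457, and 11 of 12 never passed the array median. The T cell receptor chain genes Cd3e, Cd3d and Cd3g had 28.1, 14.0 and 12.7 on tumor replicate 1 and 15.4, 41.2 and 47.7 on replicate 2. Thy1, also made by fibroblasts, had 14.1 and 133, Gzmb 19.1 and 59.5 and Nkg7 1.17 and 23.1. Cd2, Ncr1 and Cd4 were also higher on replicate 2, Cd4 only slightly. Lower on replicate 2, as Cd3e was, were Gzma (78.45 and 73.63), Il2rb (19.99 and 14.28) and Cd8a. The interferon gamma gene Ifng had at most 12.4 on any array, below the value added before the log2. Across groups, summed pan-leukocyte markers were 363 and 641 in control, 216 and 702 in DSS and 328 and 1934 in tumor crypts. The part of other cells in the difference between the tumor arrays was not tested.

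**Figure D2:**
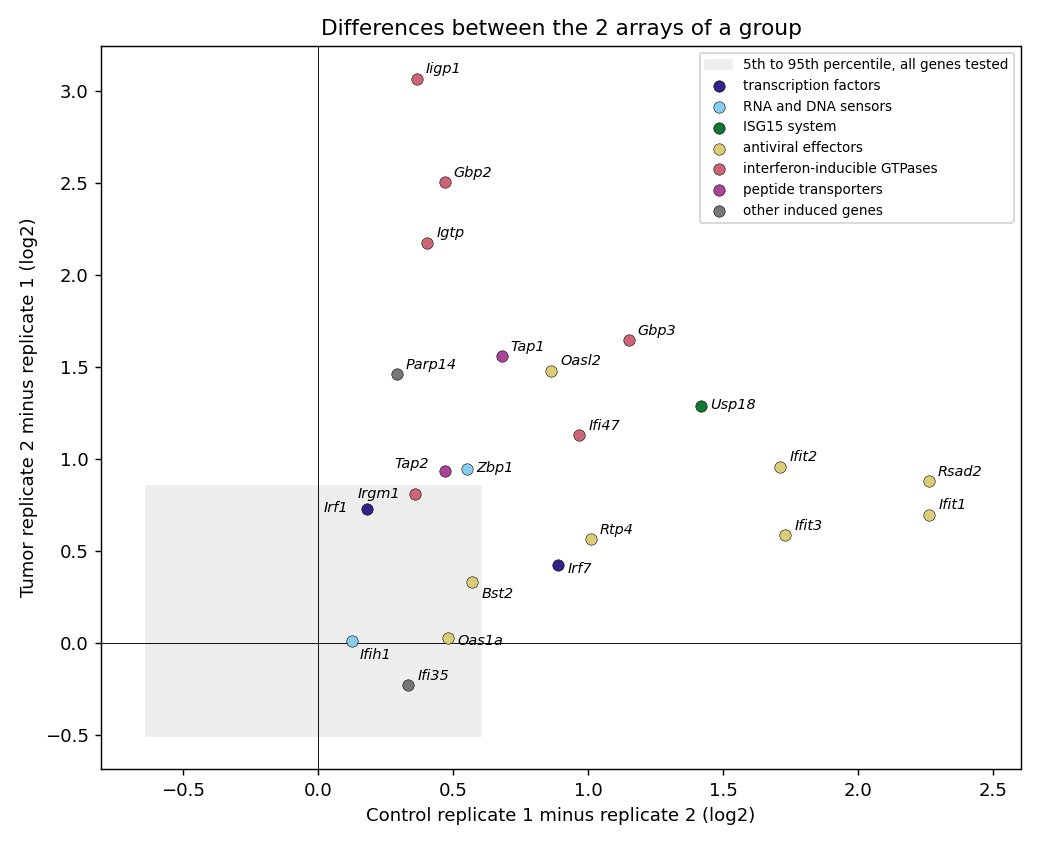
Log2 difference between control replicates 1 and 2 (horizontal axis) and between tumor replicates 2 and 1 (vertical axis) for the 23 tested members, coloured by role, with a grey box for the 5th to 95th percentile of all 7456 genes tested. Antiviral effectors such as Rsad2 and Ifit1 lie far to the right at 2.26 and the GTPases Iigp1, Gbp2 and Igtp at the top between 2.17 and 3.06.

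Usp18 and Gbp3 differed by 1 or more both between the control arrays (1.42 and 1.15) and between the tumor arrays (1.29 and 1.64). Over the 23 members, Pearson's r between the control and tumor differences was -0.09 and Spearman's rho 0.04, and over all 7456 genes -0.08 and 0.14. These values are descriptions across genes measured on the same arrays. Above the 95th percentile of all genes lay 11 members in the control difference, 13 in the tumor difference and 7 in both.

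**Figure D3:**
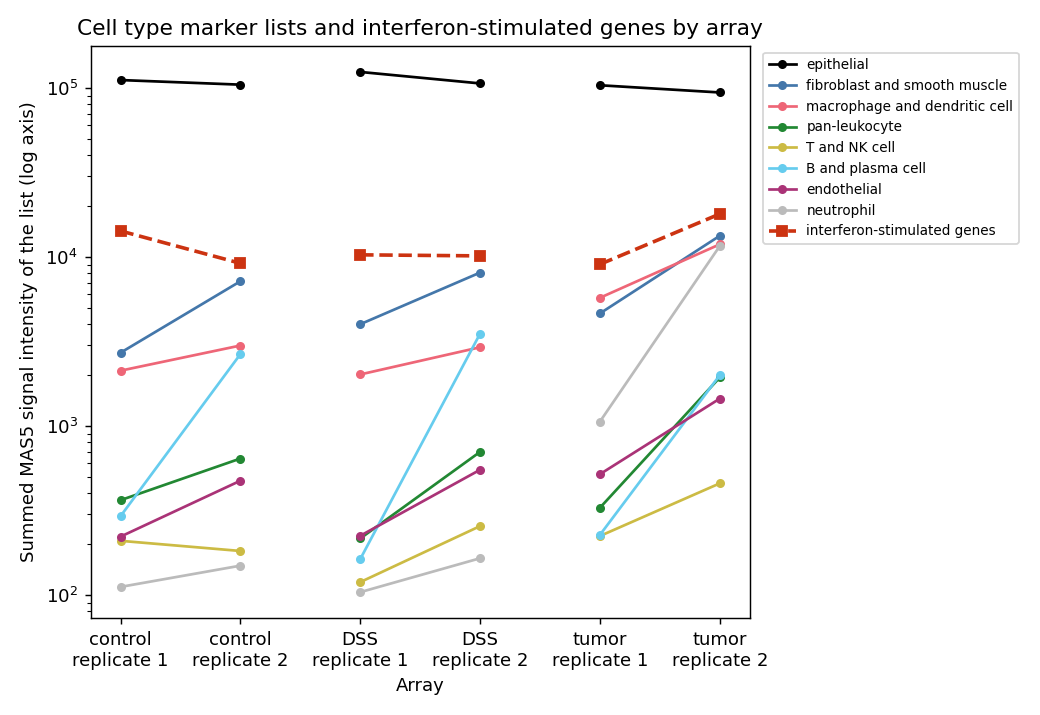
Summed MAS5 signal intensity (log axis) of cell type marker lists and of the 29 measured interferon-stimulated genes (dashed) on each array, with lines joining the arrays of a group. The interferon-stimulated sum is 14247 and 9167 on control replicates 1 and 2, where fibroblast and leukocyte sums are higher on replicate 2, and 9040 and 17953 on tumor replicates 1 and 2, where all of these sums are higher on replicate 2. Levels are comparable along a line and not between lists.

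The comparison of DSS with control crypts asks about early injury. No member passed: limma's adjusted p over all genes was at its smallest 0.9999, 0 of 23 had an unadjusted p under 0.05, and of all genes 0% were called and 2.51% had such a p. Fitted log2 changes were below 0 for 18 of 23 members (48.9% of all genes), with a median of -0.16 against 0.00436 for all genes. Ifit1 had the largest at -1.24 ± 0.62 (SE), followed by Usp18 at -0.83 ± 0.54, Rsad2 at -0.79 ± 0.63, Oasl2 at -0.77 ± 0.55, Ifi47 at -0.62 ± 0.44 and Rtp4 at -0.50 ± 0.33. Oasl2 had 235 and 121 in control, 56.8 and 145 in DSS and 97.9 and 304 in tumor crypts, so that the groups overlapped. All 6 of these genes lay higher on control replicate 1 than on control replicate 2, by 0.86 (Oasl2) to 2.26. Without control replicate 1 the median was 0.19. Of the 6 genes, Rsad2 was then at 0.34 and Rtp4 just above 0. Ifit1 (-0.11) and Ifi47 (-0.14) stayed below 0, as did Usp18 and Oasl2. Ifit2 and Ifit3, not among the 6, were at 0.52 and 0.50. Without control replicate 2 the median was -0.36. Set array by array, DSS minus control had a median of -0.38 for the first replicates and 0.20 for the second. The groups did not overlap for 2 of 23 members, Irgm1 (lower, -0.23) and Gbp2 (higher, 0.48), against 26.5% of all genes.

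Tumor crypts were compared with control crypts for the expression of the adenomas. Of 23 members, 3 rose and 1 fell, or 4 in all, while 22.6% of all genes were called (12.9% higher, 9.75% lower). The members' count is thus near that background. An unadjusted p under 0.05 was found for 5 of 23 (36.6% of all genes), and changes were above 0 for 16 of 23 (53.6%). The share of calls that were higher, over all genes, was 56.9%, and 34.6% when each array was centred on its median, which moved the median change of all genes from 0.05 to -0.20. The 3 members that rose also passed, in the same direction, under quantile normalization and median centring.

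Usp18, which removes ISG15 from proteins and damps the type I interferon receptor, had 215 and 69.3 in control, 81.0 and 47.3 in DSS and 357 and 897 in tumor crypts. Both tumor arrays lay above the other 4, of which control replicate 1 was the highest. It rose from 142 ± 103 to 627 ± 382 (mean ± SD, n = 2 and 2), by 2.04 ± 0.54 in log2 (limma adjusted p = 0.0288), and was higher on 2 of 2 tumor arrays. Usp18 passed the filter only with its tumor values, where it is high, so its p is not free of that choice. Ifi47, an immunity-related GTPase, had 235 and 111 in control, 75.7 and 130 in DSS and 467 and 1042 in tumor crypts. Again the tumor arrays lay above all others. It rose by 1.99 ± 0.44 (limma adjusted p = 0.0155). Ifit2, an RNA-binding relative of Ifit1, had 232 and 58.6 in control, 98.0 and 85.8 in DSS and 361 and 716 in tumor crypts. It rose by 1.93 ± 0.53 (limma adjusted p = 0.0325). Ifih1, the cytosolic double-stranded RNA sensor MDA5, went the other way, with 1682 and 1538 in control, 1775 and 1399 in DSS and 963 and 969 in tumor crypts. It fell by 0.73 in log2 with an SE of 0.17 (limma adjusted p = 0.0208), and both tumor arrays lay below the other 4.

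The calls of Usp18, Ifi47 and Ifit2 held without control replicate 1 or tumor replicate 1 and were lost without either replicate 2. Without control replicate 2, Usp18 was at 1.33, Ifi47 at 1.50 and Ifit2 at 1.08, and without tumor replicate 2 at 1.40, 1.42 and 1.45, none of them past the test. Ifih1 kept values of -0.66 to -0.79 whichever control or tumor array was left out, and did not pass in any of these 4 fits. With no filter on low values, Usp18 (limma adjusted p = 0.0645) and Ifit2 (0.0707) did not pass. The number of members called was 9 without tumor replicate 1, 1 without tumor replicate 2 and 1 without control replicate 2. In the same fits 1391 of 7159, 702 of 7161 and 852 of 7386 genes were called. Those called without tumor replicate 1 were Usp18, Ifi47, Ifit2, Gbp2, Igtp, Iigp1, Parp14, Tap1 and Zbp1, all higher. Without tumor replicate 2 it was Iigp1 and without control replicate 2 Oas1a, both lower. The median of the tested members was 0.30 with all arrays against 0.05 for all genes, and 0.05 under median centring, 0.78 without tumor replicate 1 and -0.32 without tumor replicate 2.

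The other 19 tested members did not pass. Oas1a, an enzyme that makes the messenger of RNase L, had 2684 and 1915 in control, 2106 and 2272 in DSS and 1465 and 1492 in tumor crypts, with a log2 change of -0.61 ± 0.19 (limma adjusted p = 0.0525). Its tumor arrays lay below the other 4, and transcripts of the closely related Oas1 genes may share its probe set. It passed under quantile normalization and median centring. Zbp1, a sensor of Z-form nucleic acid, had 271 and 179 in control, 192 and 227 in DSS and 250.4 and 499 in tumor crypts, with a change of 0.64 ± 0.33. Gbp2 was at 0.63 ± 0.65, and at -0.62 without tumor replicate 2. Gbp3 was at 0.61 ± 0.54 and Ifit3 at 0.52 ± 0.49. Bst2, the virus tether tetherin, lay between 130 and 202 on control arrays and at 183 and 235 on tumor arrays. Ifit1, Oasl2, Rsad2, Iigp1, Irf1, Irf7, Irgm1, Rtp4 and Tap2 had changes between -0.18 and 0.12, which for Ifit1, Rsad2 and Iigp1 were the net of arrays far apart. Ifi35 was at 0.30 without overlap, Tap1 at 0.53, Igtp at 0.43 and Parp14 at 0.32. Over all 23 members the groups did not overlap for 6, against 61.5% of all genes.

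**Figure D4:**
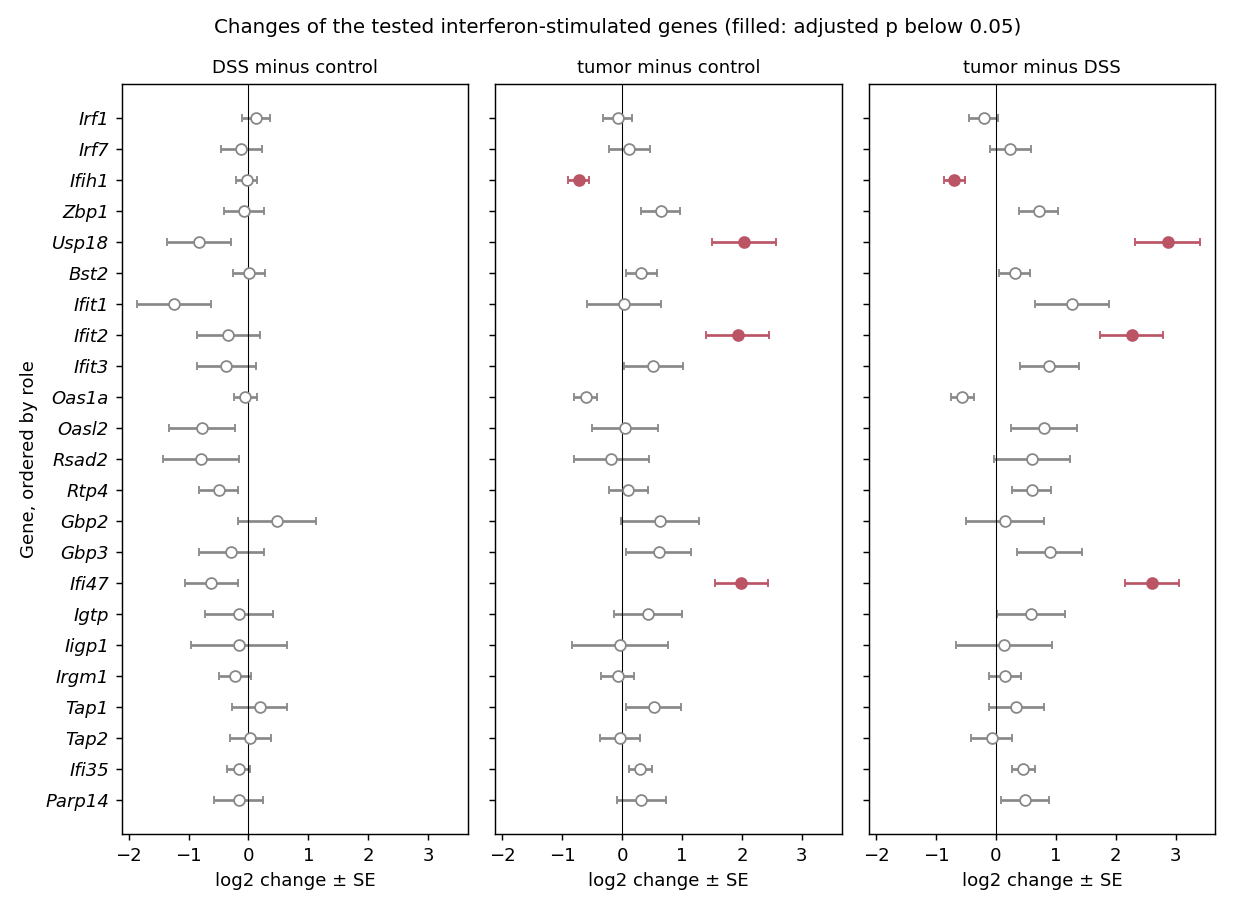
Fitted log2 change with its SE for the 23 tested members in each of the 3 comparisons, ordered by role, filled where the limma adjusted p over all genes was below 0.05. Usp18, Ifit2 and Ifi47 stand to the right in both tumor comparisons and Ifih1 to the left, and no gene is filled in the DSS comparison.

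The same 4 genes passed when tumor crypts were set against DSS crypts, a comparison that shares the tumor arrays with the previous one. Usp18 rose by 2.87 ± 0.54 (limma adjusted p = 0.0066), Ifi47 by 2.61 ± 0.44 (0.00438) and Ifit2 by 2.27 ± 0.53 (0.0157), and Ifih1 fell by 0.70 (0.0214). Here too Usp18 passed the filter only with its tumor values. Of all genes 26.2% were called, 14.9% higher and 11.3% lower. Here the groups did not overlap for 13 of 23 members (66% of all genes), 6 had an unadjusted p under 0.05 (38.6%) and 19 had changes above 0 (53.5%). Those without overlap included Ifit1 at 1.27 ± 0.62, Ifit3 at 0.89 ± 0.49, Gbp3 at 0.90 ± 0.54, Zbp1 at 0.72 ± 0.33 and Rtp4 at 0.60 ± 0.33, none of them past the test. A fit of the DSS and tumor arrays alone called 7 members and 1902 of 7456 genes, adding Ifit1, Ifit3 and Oas1a. The same 7 passed in the fit of the other 5 arrays without control replicate 2. Without tumor replicate 1 it was 10 members, and without tumor replicate 2 it was 4 (Usp18 and Ifi47 higher, Gbp2 and Iigp1 lower), with 1527 of 7159 and 943 of 7161 genes called. Without DSS replicate 1, Ifih1 was at -0.53 and did not pass. Gbp2 was at 1.40 in the first and -1.10 in the second of these fits.

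The 6 members that did not pass the filter were low on most arrays. Mx1, a dynamin-like antiviral GTPase, had 144 on control replicate 1 and 36.9 to 77.9 on the other 5 arrays. Oas2 had 129 on control replicate 1 and 42.2 to 89.0 on the others, and Dhx58, the sensor LGP2, 116 and 60.6 to 96.7. All 3 were highest on control replicate 1. Stat2, part of the ISRE-binding complex, had 18.9 to 59.9 and was lowest there, below the array median on every array. Its other probe set, as low, had 24.3 and 23.8 in control crypts and was lowest on DSS replicate 1 (20.0). The probe set that Isg15, a ubiquitin-like protein, shares with Gm9706 had 604 and 207 in control, 160.2 and 151 in DSS and 218 and 481 in tumor crypts. It was highest on control replicate 1 and next on tumor replicate 2, as Ifit1 was. Where a gene had several probe sets, they did not always give like sizes. The other probe set of Gbp2 differed by 2.54 between tumor replicates 2 and 1 and by -0.09 between control replicates 1 and 2, where the tested one gave 2.50 and 0.47. The other probe set of Iigp1 differed by 3.21 in tumor crypts, against 3.06 for the tested one. The other probe set of Zbp1, above the array median on 2 arrays, gave a change of 1.41 in tumor against control crypts where the tested one gave 0.64. The other probe sets of Rsad2, above the array median on 0 and 1 arrays, differed by 0.62 and 1.62 between the control arrays, against 2.26.

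Other genes of the interferon pathway were taken from a list of 123, of which 94 had a probe set of their own and 69 passed the filter. None of the 69 passed in DSS crypts, where 1 had an unadjusted p under 0.05 (0% and 2.51% of all genes). In tumor against control crypts 10 rose and 4 fell, 14 in all, near the 22.6% of all genes. Under median centring 26 passed, with 1874 of 7456 genes called, 34.6% of them higher. Among the 10 that rose, Icam1, Ido1 and Sting1 lay above the array median on 0 of the 4 control and DSS arrays, so that only their tumor values brought them past the filter and they had to differ. The 5 rises of smallest p were in Ifitm1, Ifitm3 and Ifitm2, membrane proteins that block viral entry, in the phosphatase gene Ptpn6 and in Sting1, the adaptor of cytosolic DNA sensing. Ifitm1 had 150 and 186 in control, 200.1 and 405 in DSS and 3279 and 5708 in tumor crypts, a rise of 4.56 ± 0.35 (limma adjusted p = 0.000153). Ifitm3 had 977 and 1097 in control, 430.0 and 934 in DSS and 9197 and 12496 in tumor crypts, a rise of 3.35 ± 0.33. Ifitm2 rose by 1.89 ± 0.25, Ptpn6 by 1.45 ± 0.18 and Sting1 by 2.37 ± 0.35. Ifitm genes are alike in sequence, and their probe sets may share signal. The genes that fell were Casp1 (by 0.96), Ifi27l2a (by 1.53), Tor3a (by 1.17) and Samhd1 (by 0.91). In tumor against DSS crypts 12 rose and 6 fell, 18 of 69 in all, where 26.2% of all genes were called (14.9% higher, 11.3% lower). The 12 again held Icam1, Ido1 and Sting1. Among the 18 were Icam1, an adhesion gene, which rose by 3.36 ± 0.44, Casp1 and Samhd1, which fell by 0.99 and 0.83, and Il18, Isg20 and Mavs, which fell by 1.15, 0.82 and 0.70.

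Receptors and Irf9, also part of the ISRE-binding complex, did not pass in any comparison. Ifnar1, a chain of the type I receptor, had 153 to 184 on control and DSS arrays and 221 and 229 in tumor crypts (0.43 ± 0.21). Ifnar2, the other chain, had 31.2 and 142 in control, 56.5 and 87.4 in DSS and 168 and 327 in tumor crypts (1.52 ± 0.55). Of the control and DSS arrays, only control replicate 2 had Ifnar2 above the array median, so it needed its tumor values to pass the filter. Ifngr1, a chain of the interferon gamma receptor, had 1520 to 1715 on control and DSS arrays and 889 and 1285 in tumor crypts (-0.63 ± 0.20). Ifngr2 was at 0.00392 ± 0.25 and Irf9 at 0.25 ± 0.23. The changes in brackets are those of tumor against control crypts. Ifnlr1 had no probe set of its own and was not analysed here.

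Between the control arrays, 0 of 69 of these other pathway genes were higher on replicate 1 by 1 or more in log2. Of all genes 0.738% were, so that 0 is near that share. Higher by any amount were 43 of 69, against 51.3% of all genes. Control replicate 1 was the highest of the 6 arrays for 12 of 69 (10.3% of all genes). Above the 95th percentile of all genes (0.60) lay Lgals3bp (0.996), Psmb8, Irgm2, Cmpk2, Ifi27l2a, Oasl1, Wars and Trim25 (0.63). Below the 5th percentile (-0.63) lay Ifnar2 (-1.70), Socs3, Icam1 and Pias1 (-0.69). These genes too were named after their values were seen. Between the tumor arrays, 11 of 69 were higher on replicate 2 by 1 or more, where 3.29% of all genes were. They were B2m, Gbp7, Ido1, Irgm2, Lgals3bp, Psmb8, Psmb9, Slfn2, Socs3, Tapbp and Trim30a, named after their values were seen. Of these, B2m, Tapbp, Psmb8 and Psmb9 serve antigen presentation on MHC class I. B2m, its light chain, had 3430 and 8458 in tumor crypts and 5589 to 8138 on the other arrays. Tapbp, the peptide-loading protein tapasin, had 913 and 2265 in tumor crypts and 917 to 1453 elsewhere. Ido1, a tryptophan-degrading enzyme, had 128 and 465 in tumor crypts and 10.4 to 35.0 elsewhere, and had a change of 2.62 ± 0.58 in tumor against control crypts, with only its tumor values above the filter.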

How the data were processed

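Total RNA of colonic crypts was measured on 1-colour Affymetrix arrays, 2 per group, labelled as biological replicates. The deposited values were signal intensity per probe set on a linear scale, made with MAS5 per the submitters' processing notes, which give no version here. Each array's trimmed mean, leaving out 2% at each end, was near 499.9. No detection calls or raw scans were used. Of 22690 probe sets, 64 controls were set aside and 20380 had 1 gene symbol. Values were taken as log2 of intensity plus 17.8, the 25th percentile. A probe set was kept if 2 or more arrays had it over the array median, and each gene was tested by its brightest kept one (7456 genes). The 3 groups entered a single limma fit (version 3.58.1, R 4.3.3) with a trend in intensity, and p-values were adjusted over all genes by Benjamini-Hochberg at 0.05, 2-sided. The pipeline was tested on simulated data. Members and lists were chosen with earlier results of these data known. Named were members past the test in any comparison or among the 6 largest changes of one, and the 5 pathway genes of smallest p per direction, with exceptions stated. A further pathway gene of that rule is not reported here. A list of 5 plasmacytoid dendritic cell genes (4 measured) and the lists given above served as cell type markers. In that list Bst2, itself a member of the set, Tcf4 and Klk1 lay above the median on every array. Ccr9 lay above it on none, and Siglech was not measured. Alternatives covered scaling, pseudocount, filter, probe sets, trend, groups in the fit, a block for the replicate number, and leaving out each array.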

Additional observations from a re-analysis of the deposited data

How the results depend on the processing

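With 2 arrays per group, precision is limited by their number. DSS calls stayed at 0 of the members under every alternative run. In tumor minus control, 4 members passed; it was 2 without a filter and 2 with the 75th percentile filter, which tests 6 members, and 1 to 9 with an array left out. In tumor minus DSS it was 1 with that filter, 7 with the 2 compared groups only, and 3 to 10 with an array left out. The 2 members called in tumor minus control without a filter were Ifi47 (higher) and Ifih1 (lower), with 1461 of 12393 genes called. With the 75th percentile filter they were Ifih1 and Oas1a, both lower, with 1103 of 4160 genes called. Usp18, Ifi47 and Ifit2 were not among the 6 members tested under that filter. Pathway genes in tumor minus control numbered 14, and 26 with median centring. The replicate number as a block left the members called at 0, 4 and 4. The labels do not say whether replicate numbers pair samples, and they were not taken as pairing. Differences between replicates 1 and 2 still correlated across genes at 0.45 for control and DSS, 0.44 for DSS and tumor and 0.08 for control and tumor. In log2 values, control and DSS correlated at 0.983 for replicates 1 and 0.986 for replicates 2. The 2 control arrays correlated at 0.971, the 2 DSS arrays at 0.978 and the 2 tumor arrays at 0.959. The block moved the calls of tumor minus control over all genes from 1686 to 1945. Directions of uncalled members turned in some settings. In tumor minus control, Ifit1 was at -0.10 with quantile normalization, -0.22 with median centring and -0.0375 with a pseudocount at the median; Oasl2 at -0.14 and -0.21 with the first pair; Rtp4 at -0.15 with median centring. Gbp2 was at -0.0845 in tumor minus DSS with median centring, and Zbp1 at 0.0820 in DSS minus control as the mean over probe sets. With an array left out, tumor minus control spanned -0.62 to 1.88 for Gbp2, -0.21 to 1.43 for Gbp3, -1.10 to 1.16 for Ifit1, -0.34 to 1.39 for Ifit3, -0.70 to 0.78 for Oasl2, -1.31 to 0.95 for Rsad2 and -0.40 to 0.61 for Rtp4. Tumor minus DSS spanned -1.10 to 1.40 for Gbp2. DSS minus control spanned -0.87 to 0.29 for Gbp3, -0.20 to 0.14 for Ifih1, -1.19 to 0.52 for Ifit2, -1.23 to 0.50 for Ifit3, -1.92 to 0.34 for Rsad2, -1.0003 to 0.0100 for Rtp4 and -0.35 to 0.20 for Zbp1. The cause of these turns was not tested.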
